A study of Mus musculus with 4 samples.

Results

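The cells described here are Col9/Matn3-high chondrocytes, barcodes selected on the summed transcripts of 4 cartilage genes. A barcode is the tag of 1 droplet, and a UMI (unique molecular identifier) is 1 counted transcript. A barcode was a member if it held at least 2000 UMIs, at least 500 genes and at most 10% mitochondrially encoded UMIs, and if Col9a1, Col9a2, Col9a3 and Matn3 together reached 20 UMIs per 10000 of its UMIs. By this rule 1712 of 21483 barcodes that passed the 3 quality limits were members. The 4 rule genes (Col9a1, ENSMUSG00000026147; Col9a2, ENSMUSG00000028626; Col9a3, ENSMUSG00000027570; Matn3, ENSMUSG00000020583) therefore describe the members and support nothing about them.

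The series holds 4 single-cell RNA libraries of bone marrow mesenchymal stromal cells from C57BL/6 mice, made for a study of mouse models of myelodysplastic syndrome, a clonal disorder of blood formation. The library WT_A1 came from wild-type mice and is paired with NHD13Tg, from mice with the Nup98-HoxD13 transgene, while the library Control came from wild-type mice and is paired with Abcg2-MDS/AML. Crushed, collagenase-digested femora and tibiae were sorted for cells with CD140a and CD51 and without CD45, TER119 and CD31. Each group is 1 library, and how many animals it pools, their age, the promoter of the transgene and how the Abcg2-MDS/AML mice were made are not stated in the labels. There is no replicate check, so no value has a p-value or a spread between animals. The intervals in parentheses are at the 95% level, exact except for that of a difference of shares, and cover counting error only.

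Hyaline cartilage is the smooth cartilage of joint surfaces, of growth plates and of the precursors of bone. Its cells, the chondrocytes, secrete a network of type II collagen fibrils that carry type IX and type XI collagen, filled with aggrecan bound to hyaluronan, and matrilins such as Matn3 link these parts. In a growth plate, resting cells give rise to columns of dividing cells, then to prehypertrophic cells that send the hedgehog signal Ihh and to hypertrophic cells with type X collagen, while cells at the joint surface make the lubricant Prg4.

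Promoters of the rule genes are shown because SOX9, with its partners SOX5 and SOX6, is the known activator of cartilage collagen genes, and the files measure the factor and its target genes in the same cells. The sequences are those of RefSeq on build GRCm38.p6, from 250 bases before to 50 bases after the annotated start. Of the 4 rule genes and the cartilage gene Ucma, 4 of 5 matched, and Col9a3 did not. Capitals mark a SOX heptamer, which is CAA with A or T at both bases before it, then A or T, then G, on either strand. Col9a1 is shown for the first of 2 annotated starts, at chr1:24177360-24177659 on the plus strand, Col9a2 at chr4:121039316-121039615 on the plus strand and Matn3 at chr12:8947679-8947978 on the plus strand.
Col9a1: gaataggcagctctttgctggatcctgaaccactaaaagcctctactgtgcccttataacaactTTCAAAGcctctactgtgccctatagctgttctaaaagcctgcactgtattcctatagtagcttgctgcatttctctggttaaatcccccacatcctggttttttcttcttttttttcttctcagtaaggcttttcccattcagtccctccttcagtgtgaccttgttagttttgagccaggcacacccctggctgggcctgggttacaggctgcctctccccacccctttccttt
Col9a2: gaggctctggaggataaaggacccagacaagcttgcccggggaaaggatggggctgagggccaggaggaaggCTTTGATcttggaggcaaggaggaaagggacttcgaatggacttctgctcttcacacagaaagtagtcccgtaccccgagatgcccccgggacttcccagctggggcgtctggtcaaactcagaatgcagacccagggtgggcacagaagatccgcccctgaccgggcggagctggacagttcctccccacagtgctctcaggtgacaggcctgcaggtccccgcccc
Matn3: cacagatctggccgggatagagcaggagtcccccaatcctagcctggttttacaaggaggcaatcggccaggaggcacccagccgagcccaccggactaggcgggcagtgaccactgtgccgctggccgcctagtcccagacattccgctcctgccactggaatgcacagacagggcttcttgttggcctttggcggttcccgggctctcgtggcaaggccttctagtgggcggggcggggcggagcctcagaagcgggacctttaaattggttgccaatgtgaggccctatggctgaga
Col9a1 has the heptamer on the plus strand at position -186 and Col9a2 on the minus strand at position -178, counted from the start. The Matn3 and Ucma windows and the window of the second Col9a1 start, at chr1:24194953-24195252, hold 0. Such a heptamer is in 24.6% of 32851 promoters of this length, so the matches only describe these windows.

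The matrices held between 36133716 and 46033790 UMIs per library. The libraries shared 0 member barcodes, and each pair of libraries shared between 6 and 14 barcodes that passed the quality limits. Control stands apart in its blood cells: 324 of its 5158 barcodes had at least 50 UMIs per 10000 from erythroid or granulocyte genes, against 29 in WT_A1, 43 in NHD13Tg and 2 in Abcg2-MDS/AML. Free RNA, read from barcodes with 1 to 100 UMIs, carried the rule genes at 57.0 UMIs per 10000 in Control and 18.6 in Abcg2-MDS/AML, and at 0.311 and 0.863 in WT_A1 and NHD13Tg. In Control the free RNA is thus above the rule minimum of 20. Blood barcodes of Control, which should lack cartilage genes, had a median rule sum of 0 and a 95th percentile of 2.19, and 2 of 324 were members.

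The first comparison asked how many chondrocytes of this kind each library held. Nearly all members came from the Abcg2 experiment. Control held 935 of 5158 barcodes (18.1%, 17.1 to 19.2) and Abcg2-MDS/AML 772 of 5586 (13.8%, 12.9 to 14.8). WT_A1 held 1 of 4973 (0.0201%, 0.000509 to 0.112) and NHD13Tg 4 of 5766 (0.0694%, 0.0189 to 0.178). The share was 4.31 percentage points lower in Abcg2-MDS/AML than in Control (a difference of -4.31, -5.71 to -2.91), but its direction turned with the depth limit. With at least 4000 UMIs per barcode the shares were 25.03% in Abcg2-MDS/AML and 23.2% in Control. Members held a median of 11067 UMIs in Abcg2-MDS/AML and 7494 in Control, and the other barcodes 3841 and 4679. The 2 experiments differed far more than the libraries within either, and what else differed between the experiments was not tested.

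**Figure D1:**
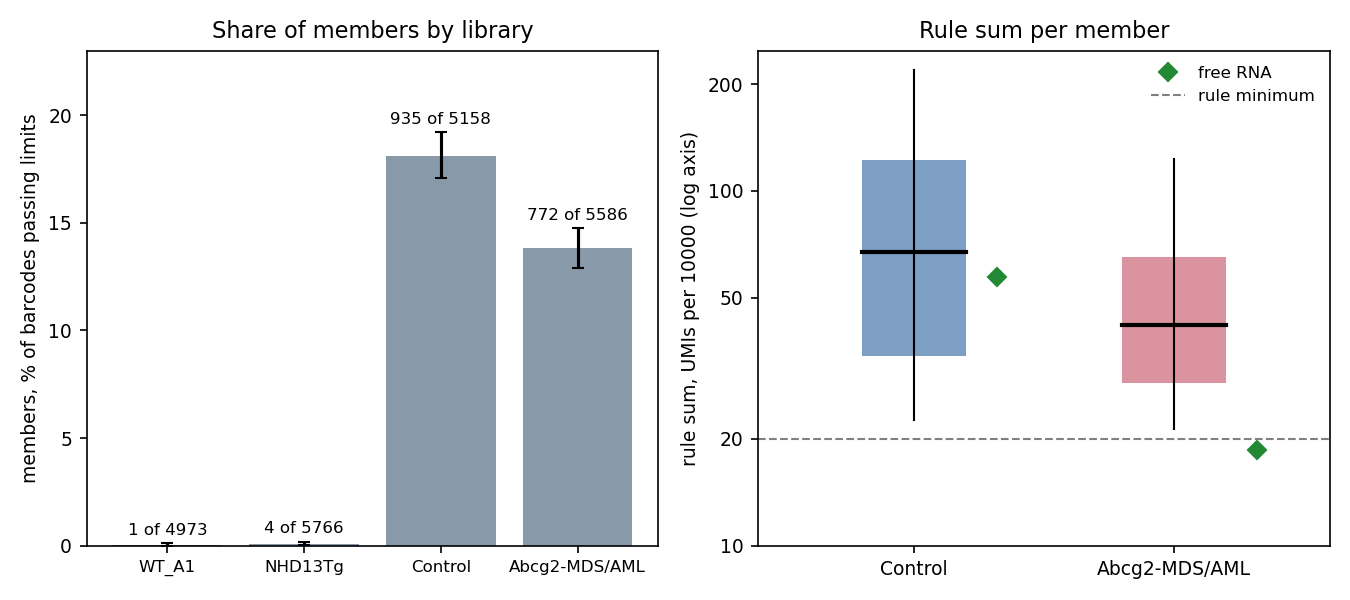
Left, members as a percentage of the barcodes that passed the quality limits, per library, with exact 95% intervals as bars. Right, the rule sum per member in UMIs per 10000 on a log axis, with the median as a line, the quartiles as a box, the 5th to 95th percentile as a thin line, the free RNA as a diamond and the rule minimum of 20 dashed. Control and Abcg2-MDS/AML stand at 18.1% and 13.8%, and the free RNA of Control lies near its members' median of 67.2.

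The rule genes were spread over a wide range within each library. The rule sum had a median of 67.2 UMIs per 10000 in Control (quartiles 34.3 and 122, highest 376) and 41.9 in Abcg2-MDS/AML (quartiles 28.7 and 64.9, highest 290). All 4 rule genes had a UMI in 72.4% of Control members and 88.5% of those in Abcg2-MDS/AML. In Control 517 members (55.3%) reached the rule sum of the free RNA, while in Abcg2-MDS/AML the free RNA lay below the rule minimum, so every member did by construction. Per gene, Col9a1 stood at 2121 and 1435 CPM (counts per 1000000 summed UMIs of the members) in Control and Abcg2-MDS/AML, Col9a2 at 2562 and 2214, Col9a3 at 3647 and 1374, and Matn3 at 1440.2 and 696 CPM. All 4 values were lower in Abcg2-MDS/AML. Among members with a rule sum of 20 to 40 Col9a1, Col9a2 and Matn3 were higher there (log2 ratios of 0.59, 0.44 and 1.20) and Col9a3 lower (-1.39). That band limits the sum of these 4 genes, so their directions in it depend on one another and cannot test the values above. Just outside the rule, at 15 to 20 UMIs per 10000, Control held 130 barcodes with Col2a1 at 7721 CPM and Prg4 at 67079 CPM. Just inside, at 20 to 25, it held 95 members with Col2a1 at 8089.6 and Prg4 at 35637 CPM. In Abcg2-MDS/AML the 130 barcodes outside had Col2a1 at 2484 CPM and the 129 inside at 3734 CPM.

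Members were checked against the markers of hyaline cartilage. Col2a1, the main collagen of cartilage, had a UMI in 99.7% of Control members and 99.4% of Abcg2-MDS/AML members. Thinned to 2000 UMIs per cell, so that depth is equal, the shares were 99.0% and 97.8%, against 15.1% in the blood barcodes of Control. The median before thinning was 20954 UMIs in these blood barcodes and 7494 in Control members, and thinning does not make the part of free RNA equal. Abcg2-MDS/AML, with 2 blood barcodes, had no such baseline of its own. The same thinned shares were 94.5% and 94.0% for Acan, the aggrecan core protein, with 3.09% in blood barcodes. They were 94.4% and 96.2% for Hapln1, which ties aggrecan to hyaluronan (3.70% in blood barcodes), and 85.6% and 83.9% for Sox9 (3.40%). Matn1, the other matrilin of hyaline cartilage on the marker list, was near its floor, with a UMI in 7.38% and 7.25% of members before thinning and a level of 18.2 and 11.4 CPM. Ucma, a secreted cartilage matrix protein, and Lect1 (chondromodulin), which keeps vessels out of cartilage, stood at 1718 and 2247 CPM in Control and 2542 and 1825 CPM in Abcg2-MDS/AML. Ucma and Lect1 were given as markers of these cells, so their presence is not independent evidence of their type. Col2a1, Acan, Hapln1 and Sox9 match the name chondrocyte in both libraries.

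Genes that set the members apart from the other barcodes of their libraries are a description, since the rule used the same cells. Outside the rule, the genes with the largest ratio of members to other barcodes were Col2a1, the pyrophosphatase Ppa1, the ion pump regulator Fxyd2, Lect1, Col11a2, Serpina1a, Serpina1d, Mia, Il17b, the kinase Prkg2 and the small proteoglycan Epyc. Col2a1 stood at 24878 CPM in members and 1059 in other barcodes of Control, and at 9273 and 446 in Abcg2-MDS/AML. Ppa1 stood at 2307 and 110.2 CPM in members and other barcodes of Control, and at 1510.1 and 54.7 in Abcg2-MDS/AML. Fxyd2 had 1106 and 18.1 CPM in Control and 318 and 21.7 in Abcg2-MDS/AML, and Il17b, a cytokine gene, 96.4 and 1.13 CPM and 174 and 7.99 CPM. A narrower comparison took other barcodes with Msmp and Cytl1 of at least 10 UMIs per 10000 (2043 in Control, 1248 in Abcg2-MDS/AML). All the genes listed above were higher in members than in these. In Control the log2 ratios were 3.58 for Col2a1, 4.10 for Serpina1a, 4.33 for Serpina1d and 4.17 for Prkg2. In Abcg2-MDS/AML they were 3.03, 0.988, 1.01 and 1.36, so the serpins and Prkg2 set members apart less there. The members' leading transcript was another one in each library. Sparc, a collagen-binding matrix protein, stood at 36407 CPM in Control and 25079.7 in Abcg2-MDS/AML, and Mgp, which inhibits calcification of cartilage, at 28484 and 64878 CPM. Sparc and Mgp were named after their values had been seen. Mgp was also higher in the other barcodes of Abcg2-MDS/AML (24126 against 7587 CPM).

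**Figure D2:**
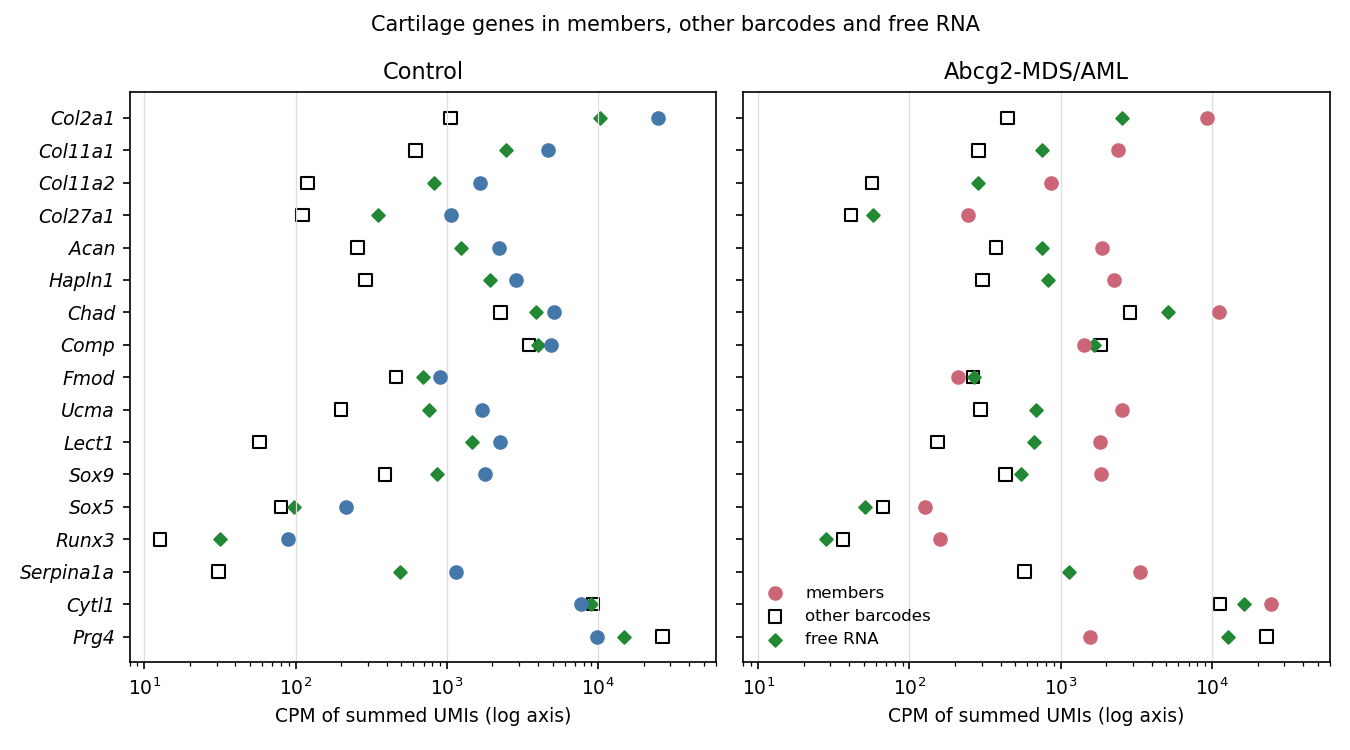
CPM of summed UMIs on a log axis for cartilage genes in members (filled circles), in all other barcodes that passed the quality limits (open squares) and in free RNA (diamonds), in Control and Abcg2-MDS/AML. Col2a1 lies highest among the collagens in the members of both libraries, and Prg4 lies lower in members than in other barcodes.

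Members were not uniform, and marker cuts set after the values had been seen marked overlapping parts of Control with smaller shares in Abcg2-MDS/AML. Cells with at least 2 UMIs per 10000 of the division genes Mki67 and Top2a were 40 of 935 in Control (4.28%, 3.07 to 5.78) against 2 of 772 in Abcg2-MDS/AML (0.259%, 0.0314 to 0.933). Cells with at least 5 UMIs per 10000 of Ihh, Col10a1 and Panx3, genes of prehypertrophic and hypertrophic cartilage, were 82 (8.77%, 7.04 to 10.8) and 8 (1.04%, 0.448 to 2.03). Cells with at least 100 UMIs per 10000 of the surface lubricant Prg4 were 152 (16.3%, 13.9 to 18.8) and 22 (2.85%, 1.79 to 4.28). Cells with at least 5 UMIs per 10000 of the resting zone genes Sfrp5 and Pthlh were 76 (8.13%, 6.46 to 10.1) and 9 (1.17%, 0.534 to 2.20). The cells past none of the 4 cuts were 615 of 935 in Control (65.8%) against 735 of 772 in Abcg2-MDS/AML (95.2%). Within a factor of 2 of the cuts lay 22, 80, 77 and 106 members of Control, in the order given, and 12, 10, 15 and 24 of Abcg2-MDS/AML, so these are ranges and not cell types. Among members with at least 4000 UMIs the shares were 3.40%, 8.81%, 14.97% and 7.04% in Control. In Abcg2-MDS/AML they were 0.134%, 0.937%, 2.41% and 0.535%. Free RNA held Mki67 at 115 CPM in Control and 5.30 in Abcg2-MDS/AML, Top2a at 118 and 3.18, and Col10a1 at 428 and 30.1. It held Prg4 at 14853 and 12818 CPM. The free RNA of Control reached every cut but that on Sfrp5 and Pthlh, and that of Abcg2-MDS/AML only the Prg4 cut. The part of free RNA in these shares was not tested.

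**Figure D3:**
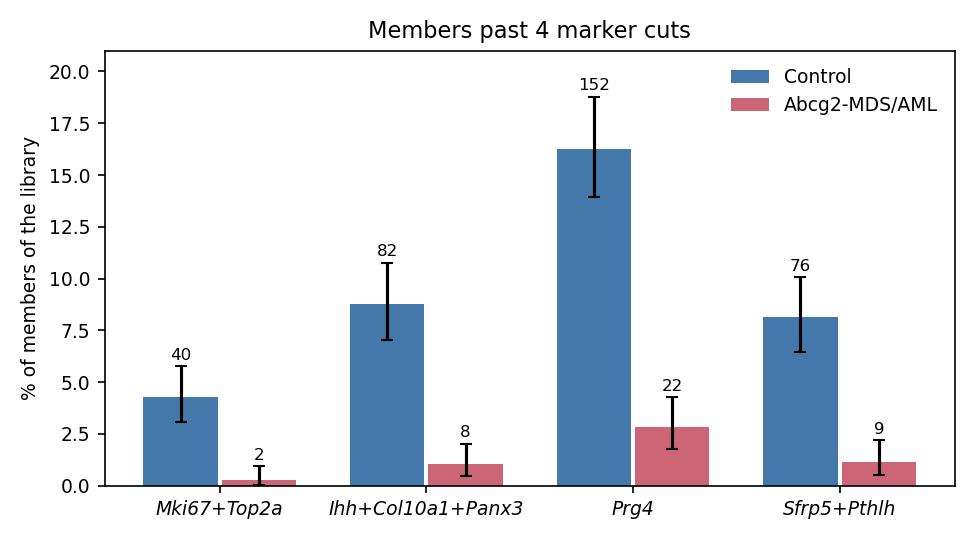
Members past each of 4 marker cuts as a percentage of the members of Control and Abcg2-MDS/AML, with exact 95% intervals as bars and the number of members above each. All 4 shares are higher in Control, and the largest is that of the Prg4 cut at 16.3% and 2.85%. Free RNA of the cut genes differed between the libraries and was not subtracted.

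Each of these groups in Control carried further genes that the cuts did not use. The groups overlapped. Also past another cut were 20 of the 82 cells past the Ihh, Col10a1 and Panx3 cut and 23 of the 152 Prg4 cells. So were 7 of the 76 cells past the Sfrp5 and Pthlh cut and 7 of the 40 past the Mki67 and Top2a cut. The 82 cells past the Ihh, Col10a1 and Panx3 cut had Pth1r, the receptor of parathyroid hormone-related protein, at 1983 CPM against 424 in the other members, and Mef2c, a transcription factor of hypertrophy, at 634 against 98.4 CPM. They also had Smpd3, a sphingomyelinase needed for cartilage mineralization, at 706 against 97.2 CPM and Alpl, the tissue-nonspecific alkaline phosphatase, at 967 against 164 CPM. Prg4 was higher in these 82 cells too, at 16706 against 9009 CPM. The 76 cells past the Sfrp5 and Pthlh cut had the matrix protein Efemp1 at 437 against 42.1 CPM and Spon1 at 278 against 47.1 CPM. They had Apoe at 5077 against 1364 CPM and the Wnt inhibitor Notum at 373 against 86.4 CPM. The 152 Prg4 cells had the cartilage intermediate layer protein Cilp at 3743 against 293 CPM, Cytl1 at 33844 against 3797 CPM and Clu at 3129 against 667 CPM. Prg4 itself stood at 71126 CPM there and at 14853 CPM in free RNA. Col10a1 stood at 582 CPM in the Prg4 cells against 374 in the other members. Serpina1a was low in the Prg4 cells (66.5 CPM) and stood at 1452 CPM in the 615 cells past no cut.

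The 40 cells past the Mki67 and Top2a cut in Control had Hist1h2ap, a histone gene, at 1016 CPM against 3.55 in the other members. They had Stmn1, a microtubule regulator, at 1765 against 26.9 CPM. Their Col2a1 level was 28962 CPM, so the cartilage genes stood beside the division genes in the summed cells. Of the 40 cells, 25 carried a UMI of an erythroid marker and 15 did not. In the 15 cells the median level of the cell cycle list was 38.4 UMIs per 10000, Col2a1 stood at 33529 CPM and the erythroid gene Car2 at 19.3 CPM. In the 25 cells the values were 56.4, 26873 and 974. Control also held 535 dividing barcodes outside the members, and Abcg2-MDS/AML 38. Of the 40 cells, 9 were among the highest Scrublet scores, against 67 of all 935 members of Control. Their median was 13253 UMIs, against 7494 in all members. The part of blood cell RNA or of doublets (droplets with more than 1 cell) in the 40 cells was not tested.

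Col2a1 was higher at a higher rule sum in both libraries. In Control it stood at 9668 CPM in the 292 members with a rule sum of 20 to 40, at 16416 in the 252 with 40 to 80 and at 36519 in the 391 with 80 and over. In Abcg2-MDS/AML the values were 4604, 9528 and 17984 CPM over 360, 282 and 130 members. Prg4 went the other way in Control, at 29846, 8781 and 380.4 CPM. Cytl1, a secreted protein of cartilage cells, stood at 20338.5, 7122 and 1753 CPM in Control and at 29526, 23987 and 15692 CPM in Abcg2-MDS/AML. Sox9 was nearly even in Abcg2-MDS/AML, at 1858, 1863 and 1834 CPM, and stood at 1249, 1691 and 2073 CPM in Control.

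The next comparison asked how the members' expression differed between Abcg2-MDS/AML and Control. Col2a1, Col27a1 and the collagen chaperone Serpinh1 were lower in Abcg2-MDS/AML, as were most zone genes, while antitrypsin serpins and Chad were higher. Among members with a rule sum of 20 to 40 several other differences were smaller and some larger, and values stand beside several of them. The cells of that band were not alike, with Prg4 at 29846 CPM in Control and 2629 in Abcg2-MDS/AML. UMIs were summed over the 772 and 935 members, 8755918 and 7814997 in all, and a log2 ratio of CPM was taken. A gene with at least 20 CPM in 1 of the 2 libraries was considered, and it was called where it was at least 2-fold apart and its counting interval left out a ratio of 1. This is a rule of size and not a test. Of 5041 genes considered, 175 were higher (3.47%) and 770 lower (15.3%) in Abcg2-MDS/AML. Of these, 54 and 360 had as high a CPM in free RNA, in the library where they were higher, as in the members. The median log2 ratio of the genes considered was -0.32, and with ratios centred on the median of well-measured genes, a shift of -0.18, the counts were 241 higher and 531 lower. For gene lists the size was 1.5-fold at 5 CPM or more, which 652 of 9229 genes (7.06%) passed upward and 3385 (36.7%) downward, with a median of -0.39.

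Matrix collagens came first. Col2a1 stood at 24878 CPM in Control and 9273 in Abcg2-MDS/AML, 2.68-fold lower (log2 -1.42, -1.44 to -1.41). Col11a1 stood at 4636 and 2392 CPM (log2 -0.95) and Col11a2 at 1650.3 and 859 CPM (log2 -0.94), the type XI chains that seed the fibril. Col27a1, a further fibrillar collagen of cartilage, stood at 1063 and 243 CPM (log2 -2.13). All 4 cartilage collagens outside the rule were called lower at the 1.5-fold size, with a median log2 ratio of -1.19. In the other barcodes of the same libraries the log2 ratios were -1.25 for Col2a1, -1.12 for Col11a1, -1.09 for Col11a2 and -1.44 for Col27a1. All 4 thus had the same direction in members and in other barcodes. Among members with a rule sum of 20 to 40 in both libraries Col2a1 had a log2 ratio of -1.07, Col27a1 -1.69, Col11a1 -0.56 and Col11a2 -0.34, so the type XI chains fell short of the 1.5-fold size there. Among members without division, hypertrophy, Prg4 or some other-type markers past a cut Col2a1 had -1.42. Those other types were marrow reticular, erythroid, granulocyte, fibroblast and tendon. Osteoblast markers were not cut, and Ibsp (bone sialoprotein) still stood at 2063 CPM in Control and 325 in Abcg2-MDS/AML there.

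The aggrecan complex and other matrix proteins did not move as 1 group. Of 14 measured genes, 1 was called higher and 5 lower, with a median of -0.44, near the -0.39 of all genes. Acan stood at 2224 and 1884 CPM and Hapln1 at 2864 and 2242 CPM, below the 1.5-fold size. Chad (chondroadherin), which binds chondrocytes to collagen, was higher at 5069 and 11049.7 CPM (log2 1.12, 1.11 to 1.14). Comp, a pentameric collagen-binding protein, was lower at 4906 and 1421 CPM (log2 -1.79), and Fmod (fibromodulin), which shapes fibrils, at 896 and 208 CPM (log2 -2.11). In Abcg2-MDS/AML the free RNA held Comp and Fmod at 1667 and 268 CPM, as high as the members or higher. Among members with a rule sum of 20 to 40 the median of this list turned to 0.11.

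Collagen processing genes were lower or below the size. Of 18 measured collagen processing genes, 0 were called higher and 12 lower (median -0.83). Serpinh1 (HSP47), the collagen chaperone, stood at 1268 CPM in Control against 286 in Abcg2-MDS/AML (log2 -2.15, -2.21 to -2.08). Plod2, a lysyl hydroxylase, stood at 1063 and 562 CPM (log2 -0.92), and Ppib (cyclophilin B) at 1205 and 677 CPM (log2 -0.83). In the other barcodes the log2 ratios were -1.45 for Serpinh1, -0.65 for Plod2 and -0.67 for Ppib, in the same direction. Of 14 glycosaminoglycan genes 0 were higher and 6 lower (median -0.49), near the share and the median of all genes. Chst11, a chondroitin sulfotransferase, stood at 491 and 208 CPM (log2 -1.24), and Slc26a2, the sulfate transporter mutated in diastrophic dysplasia, at 199 and 81.0 CPM (log2 -1.29). At a rule sum of 20 to 40 both had log2 ratios of -0.47, below the size, and the list median was -0.14. Of 16 genes of the unfolded protein response 11 were lower and 1, Herpud1 (173 and 430.2 CPM, log2 1.32), was higher, and 7 of the 16 had as much free RNA as member RNA.

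Of 12 measured chondrogenic transcription factors, 1 was called higher and 7 lower, with a median of -0.74. Sox9, the master regulator of cartilage, stood at 1773 CPM in Control against 1855 in Abcg2-MDS/AML (log2 0.07), and Sox6 at 97.5 and 79.3 CPM (log2 -0.30). Sox5, the partner of Sox9 and Sox6, stood at 216 and 126 CPM (log2 -0.77), and at log2 -0.36 among members with a rule sum of 20 to 40, where the list median of -0.31 equalled that of all genes. Runx2, a driver of hypertrophy and bone formation, stood at 105 and 33.0 CPM (log2 -1.67), and Trps1, a zinc finger repressor, at 328 and 162 CPM (log2 -1.02). Runx3 was the gene called higher, at 88.4 and 160.2 CPM (log2 0.86, 0.73 to 0.99).

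Zone genes were mostly lower in Abcg2-MDS/AML. Of 12 prehypertrophic and hypertrophic genes 11 were called lower and 1 higher (median -1.78). Ihh stood at 35.4 CPM in Control against 4.797 in Abcg2-MDS/AML (log2 -2.87, -3.39 to -2.41), and Panx3, a channel protein, at 84.3 and 18.7 CPM (log2 -2.17). For Col10a1 (401 and 84.7 CPM) 1 cell held 26.2% of the UMIs in Control, and the free RNA there stood at 428 CPM. The gene called higher, the collagenase Mmp13, stood at 8.06 and 19.0 CPM, with free RNA at 177 and 523 CPM. Of 6 resting zone genes 5 were called lower (median -1.92). Among them were the Wnt inhibitors Wif1 (732 and 49.5 CPM, log2 -3.89) and Sfrp5 (58.9 and 6.62 CPM, log2 -3.14). This list was not particular to resting cells, since in Control Wif1, Gas1 and Clu stood at 2165, 1062 and 3129 CPM in the Prg4 cells. In the cells past the Sfrp5 and Pthlh cut they stood at 1433, 170 and 1938 CPM, while Apoe was higher there (5077 against 1001 CPM). Of 11 surface zone genes 9 were called lower and 1 higher (median -1.97), and 10 of the 11 had as much free RNA as member RNA. At a rule sum of 20 to 40 the resting and surface medians lay further down, at -2.73 and -2.87. The prehypertrophic and hypertrophic median was -1.38 there. Prg4 stood at 9827 and 1561 CPM (log2 -2.65), and in Abcg2-MDS/AML 1 cell held 23.7% of its UMIs. Cytl1 was the gene called higher, at 7729 and 24529.7 CPM (log2 1.67, 1.65 to 1.68). Per cell, Cytl1 had a median of 10.6 UMIs per 10000 in Control, with 82.2% of members carrying a UMI, and 216 in Abcg2-MDS/AML, with 99.2%. Among members without division, hypertrophy, Prg4 or some other-type markers past a cut (621 and 718 cells) Cytl1 had a log2 ratio of 2.73. Osteoblast markers were not cut there. At a rule sum of 20 to 40 Cytl1 had 0.54 (20338.5 against 29526 CPM), below the 1.5-fold size. Ihh had -0.53 in the former members (-1.47 to 0.42), a difference that was not detectable at this depth, and cells high in Ihh were left out of that count by its own rule.

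Of 9 hedgehog and parathyroid hormone-related genes 0 were called higher and 5 lower (median -0.81). The hedgehog receptor and target Ptch1 stood at 248 CPM in Control against 142 in Abcg2-MDS/AML (log2 -0.81), and the hedgehog-binding inhibitor Hhip at 106 and 30.6 CPM (log2 -1.79). Its effectors Gli1, Gli2 and Gli3 and the transducer Smo had log2 ratios between -0.15 and 0.32, below the size. The ligand Pthlh stood at 28.8 and 9.94 CPM (log2 -1.53), and its receptor Pth1r at 589.8 and 327 CPM (log2 -0.85). At a rule sum of 20 to 40 Ptch1 had -0.42 and Pth1r -0.38, below the size. Of 7 Wnt ligands and modulators 6 were called lower and 0 higher (median -2.59), with Frzb at 123 and 21.1 CPM. Of 12 FGF and IGF genes 9 were lower and 2 higher (median -1.21), with Fgfr3, the receptor that restrains growth plate division, at 133 and 49.2 CPM (log2 -1.43) and the receptor Igf1r at 89.6 and 144 CPM (log2 0.69). Of 18 BMP and TGF-beta genes 9 were lower and 1 higher (median -0.69), with the receptor Tgfbr2 at 117 and 43.5 CPM (log2 -1.42). All 15 cell cycle genes had as much free RNA as member RNA in the library where they were higher, and 13 were called lower, with Mki67 at 39.3 and 1.03 CPM.

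**Figure D4:**
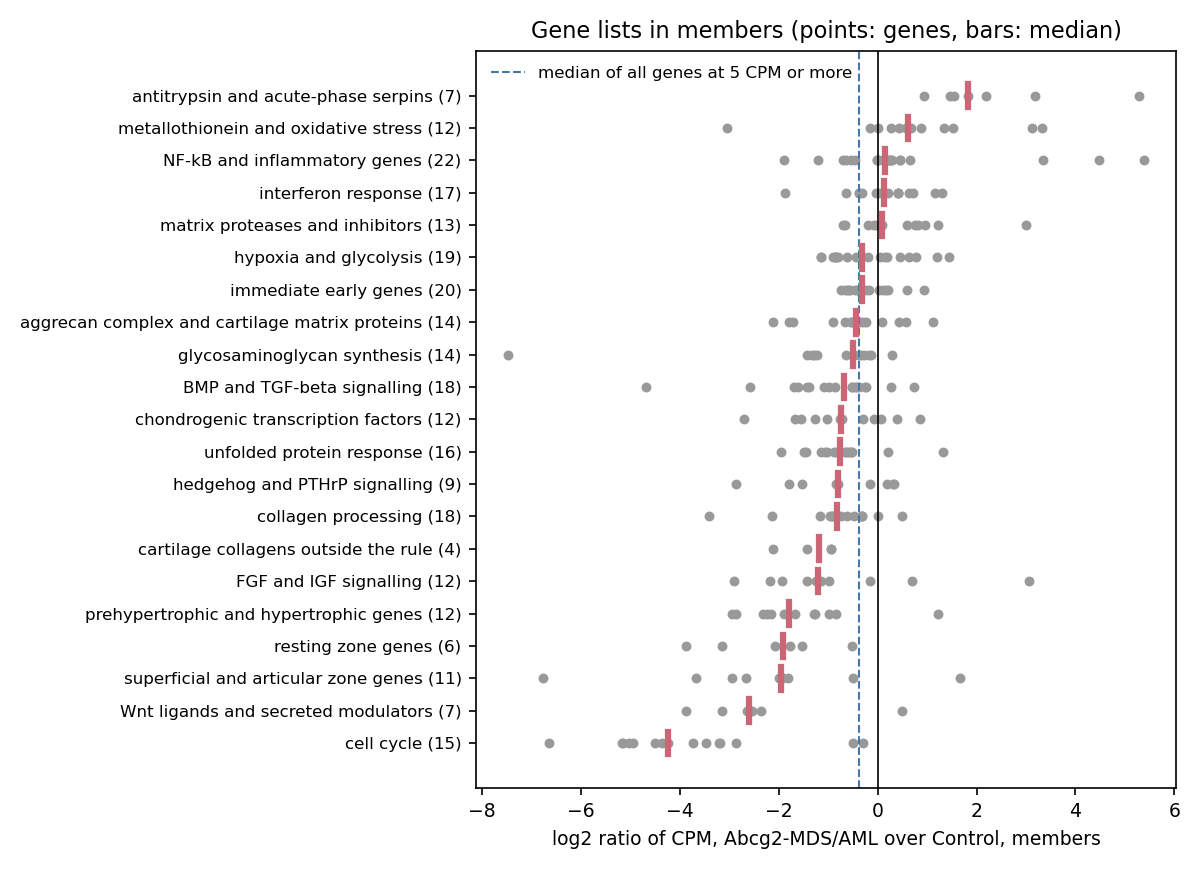
Log2 ratios of CPM in members, Abcg2-MDS/AML over Control, for each measured gene (points) of 21 lists, with the number measured in parentheses, the list median as a bar and the median of all genes with 5 CPM or more (-0.39) dashed. The serpin list lies highest, at a median of 1.83, and the cell cycle list lowest, at -4.25. Chst3 in the glycosaminoglycan list has 0 UMIs in Abcg2-MDS/AML, so its point is no bound.

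Antitrypsin and related serpins had the highest median of the 21 lists. The Serpina1 genes encode secreted inhibitors of neutrophil elastase, a blood protease that digests cartilage matrix. All 7 measured serpins were called higher and 0 lower, with a median of 1.83. Serpina1a stood at 1145 CPM in Control against 3345 in Abcg2-MDS/AML (log2 1.55, 1.51 to 1.58), Serpina1b at 568 and 2015 CPM (log2 1.83), Serpina1c at 63.0 and 286 CPM (log2 2.18) and Serpina1d at 698 and 1926 CPM (log2 1.46). Serpina3n and Serpina3m, also on the list, had as much free RNA as member RNA, with Serpina3n at 12.4 and 113 CPM. The Serpina1 genes are near-identical copies, so how the counting divided reads among them is uncertain. Serpina1a had a UMI in 49.1% of members in Control and 85.0% in Abcg2-MDS/AML, and in 37.8% and 76.0% after thinning. It was also higher in the other barcodes of Abcg2-MDS/AML, at 575 against 30.9 CPM. Serpina1a was given as a marker of these cells, so its presence in them is not independent evidence of their type.

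Proteases and their inhibitors had 6 of 13 genes called higher and 2 lower (median 0.08). The inhibitors Timp3 (578 and 1124 CPM, log2 0.96) and Timp4 (8.32 and 66.8 CPM, log2 3.00) were among the higher ones, and 10 of the 13 had as much free RNA as member RNA. Metallothionein and oxidative stress genes had 6 of 12 higher and 1 lower (median 0.62), and 9 of the 12 had as much free RNA as member RNA. Mt1, a metal-binding protein, stood at 537 and 5361 CPM (log2 3.32), while free RNA held 976 and 12123 CPM and the other barcodes 969.6 and 12457 CPM. Thinned to equal depth, 25.3% and 84.8% of members carried an Mt1 UMI, against 28.4% of blood barcodes in Control. The interferon list had 4 of 17 higher and 2 lower (median 0.12), with Ifit3 at 8.57 and 19.3 CPM, and 11 of the 17 had as much free RNA as member RNA. Among these were Cxcl9 and Cxcl10, also called higher, at 15.2 and 22.4 CPM in Abcg2-MDS/AML with free RNA at 61.2 and 99.4 CPM. For Cxcl9 1 cell held 57.1% of the UMIs there. The NF-kB list had 4 of 22 higher and 4 lower (median 0.15), and 15 of the 22 had as much free RNA as member RNA. Hypoxia and glycolysis genes had 4 of 19 higher and 8 lower (median -0.32), and immediate early genes 2 of 20 higher and 3 lower (median -0.33), near the median of all genes.

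The genes with the largest ratios were named by a rule that set aside those with as much free RNA as member RNA. The 10 largest upward were led by Slc10a6, a sulfated steroid transporter, at 2.56 CPM in Control against 56.8 in Abcg2-MDS/AML (log2 4.44, 3.83 to 5.19). Fkbp5, a co-chaperone of the glucocorticoid receptor, stood at 8.57 and 153 CPM (log2 4.15, 3.80 to 4.53), and Gpld1, a phospholipase that releases anchored proteins, at 3.58 and 60.1 CPM (log2 4.04). Zbtb16, a zinc finger repressor (log2 3.43), Il6ra, the interleukin 6 receptor (log2 3.02), Timp4, Deptor, an inhibitor of the kinase mTOR (log2 2.89), Flywch2 (log2 2.84), the zinc and manganese importer Slc39a8 (log2 2.56) and the adaptor Gab1 (log2 2.42) completed them. In the other barcodes of the same libraries the log2 ratios were 5.53 for Slc10a6, 3.94 for Fkbp5, 3.63 for Gpld1, 3.79 for Zbtb16, 3.51 for Il6ra, 2.14 for Timp4, 2.77 for Deptor, 3.17 for Flywch2, 1.26 for Slc39a8 and 2.02 for Gab1. All 10 thus had the same direction in members and in other barcodes.

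The 10 largest downward were led by R3hdml, a secreted protein, at 74.0 CPM in Control against 1.03 in Abcg2-MDS/AML (log2 -6.09, -7.31 to -5.23). Smpd3 stood at 162 and 3.77 CPM (log2 -5.40), and Nrep at 144 and 4.68 CPM (log2 -4.92). The carbonic anhydrases Car12 (65.6 and 3.997 CPM, log2 -4.02) and Car8 (68.8 and 6.17 CPM, log2 -3.47), Wif1, the secreted factor Angptl2 (log2 -3.34), Ddah1, which degrades methylarginines (log2 -3.28), Sfrp5 and Efemp1 (log2 -3.10) followed. In the other barcodes the log2 ratios were -3.19 for R3hdml, -2.81 for Smpd3, -2.77 for Nrep, -1.04 for Car12, -1.36 for Car8, -1.43 for Wif1, -0.69 for Angptl2, -1.54 for Ddah1, -0.49 for Sfrp5 and 1.85 for Efemp1. Of these genes, 9 had the same direction in other barcodes and Efemp1 the opposite one. The difference between members and other barcodes was not tested.

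**Figure D5:**
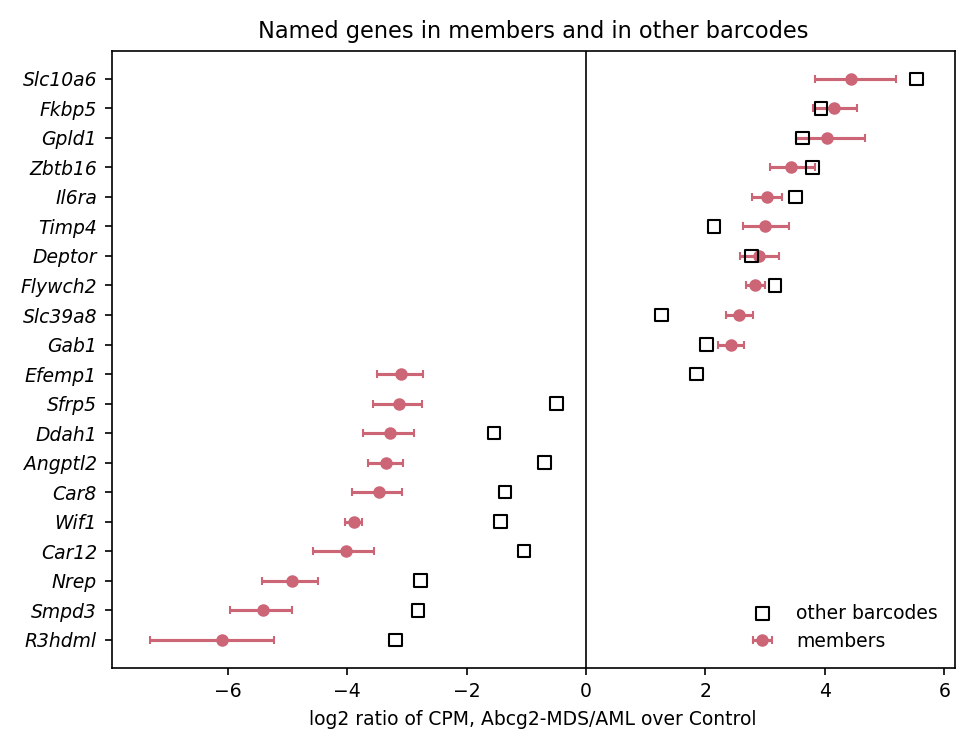
Log2 ratios of CPM, Abcg2-MDS/AML over Control, for the 10 largest upward and the 10 largest downward genes in members (circles with exact 95% counting intervals) and in other barcodes of the same libraries (squares). The upward genes lie above 0 in both, from 2.42 to 4.44 in members, and Efemp1 lies on opposite sides.

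Markers of other cell types in the members differed between the libraries as well. Osteoblast markers summed to 5272 CPM in Control and 731 in Abcg2-MDS/AML, and 6 of 7 measured were called lower. Most of this was Ibsp (bone sialoprotein), at 3692 and 476 CPM, while its free RNA stood at 3566 and 2839 CPM. In Control it stood at 8274 CPM in the cells past the Ihh, Col10a1 and Panx3 cut and at 7066 CPM in the Prg4 cells. Erythroid markers summed to 125 CPM in Control, and all 7 were at 0 in Abcg2-MDS/AML. Marrow reticular markers summed to 137 and 104 CPM, against 1731 and 1189 in other barcodes, with Adipoq at 0 in Abcg2-MDS/AML. Fibroblast markers summed to 19.4 and 8.45 CPM, tendon markers to 437 and 83.4 CPM, endothelial markers to 1.15 and 0.685 CPM, and granulocyte markers to 10.7 and 2.63 CPM. Mural markers summed to 51.8 and 209 CPM, with Acta2 at 2.05 and 70.5 CPM and free RNA of Acta2 at 24.2 and 97.2 CPM. Synovial lining markers, which include Prg4, summed to 9975 and 1615 CPM. The part of other cells in the members' differences was not tested.

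The 5 members of the NHD13 experiment are described cell by cell, since 1 cell against 4 gives no comparison. The WT_A1 cell held 14551 UMIs and a rule sum of 33.0 UMIs per 10000, with 38 UMIs of Col2a1, 24 of Acan, 16 of Hapln1, 11 of Sox9, 61 of Serpina1a and 86 of Cytl1. It also held marrow reticular markers at 61.9 UMIs per 10000 and osteoblast markers at 39.9. The first NHD13Tg cell, with 13280 UMIs, had 60 UMIs of Col2a1, 24 of Acan, 129 of Serpina1a and 410 of Cytl1. The second, with 9515 UMIs, had 16 of Col2a1, 23 of Acan, 45 of Serpina1a and 30 of Cytl1. The third, with 24973 UMIs, had 223 of Col2a1, 49 of Acan, 122 of Serpina1a and 0 of Cytl1, and it had the highest rule sum, 74.9. The fourth, with 8096 UMIs, had 246 of Col2a1, 40 of Acan, 3 of Serpina1a and 0 of Cytl1. The NHD13Tg cells held osteoblast markers at up to 58.1 UMIs per 10000 (2 of 4 cells at 20 or more), marrow reticular markers at up to 64.1, tendon markers at up to 29.6 and synovial lining markers at up to 22.8, and 1 of the 4 was among the highest Scrublet scores. All 5 cells carried Col2a1, Acan, Hapln1 and Sox9, and their free RNA held the rule genes at under 1 UMI per 10000.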

How the data were processed

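Single-cell RNA was measured in 4 libraries, 1 per group. Per the labels' protocols, libraries were built with Chromium 3' chemistry and sequenced on a NextSeq instrument. The submitters' processing notes list Cell Ranger 3.1.0 and Seurat 3.2.3. No source read here names the genome build or annotation. The deposited files hold whole UMI counts for 27998 genes and 6794880 barcodes, with no normalization and all barcodes kept, so the quality limits above were applied anew. No cell annotation was used.

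UMIs of the members were summed per library in Python 3.11.15 (numpy 2.4.6, scipy 1.17.1). Log2 ratios of CPM were taken with 0.5 added to each count, with conditional binomial intervals; shares have Clopper-Pearson intervals. The interval of the share difference is built from the intervals of both shares (Newcombe's way). The size rule was run on simulated counts with counting error only. That run held no variation between cells or animals, so it is no check of the calls made here. Ratios of members to other barcodes had 10 CPM added and were averaged over Control and Abcg2-MDS/AML, not over all 4 libraries as planned, since the NHD13 pair held 5 members. Scrublet in scanpy 1.11.5 marked between 1 and 3 barcodes per library at its own threshold, which is not a working call, so no doublets were removed; an alternative removed the highest scores at 0.8% per 1000 barcodes (67 members in Control, 41 in Abcg2-MDS/AML).

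Genes were named by rule: the rule genes and given markers, the 10 largest ratios per direction, 2 to 4 genes per list, and the 15 genes with the largest ratio of members to other barcodes. For the largest ratios a gene needed 50 CPM in 1 library, no cell with over 20% of its UMIs, and less free RNA than member RNA. X-inactivation genes, Y-linked genes, mitochondrially encoded genes, ribosomal protein genes, immunoglobulin segments and unnamed genes were left out. The 2 symbols Snorc and Lepre1 matched no gene. The members, lists and rules were chosen with earlier results of these data known. Ratios planned for the NHD13 pair were not computed either.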

Additional observations from a re-analysis of the deposited data

How the results depend on the processing

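With a rule minimum of 10 UMIs per 10000 the member shares were 0.225% (NHD13Tg), 24.5% (Control) and 19.1% (Abcg2-MDS/AML), and with 40 they were 0% in WT_A1, 0.0173%, 12.5% and 7.38%. With at least 1000 UMIs Abcg2-MDS/AML stood at 11.7%, a difference from Control of -5.94 points. With at least 4000 UMIs Control stood at 23.2% and Abcg2-MDS/AML at 25.03%, and the difference turned to 1.79 points. Control stood at 19.3% without blood barcodes and at 19.7% with every barcode thinned to 2000 UMIs, a setting chosen after seeing the data. Genes 2-fold higher and lower numbered 339 and 1712 at 5 CPM or more and 64 and 191 at 100 CPM or more. Among members with a rule sum of 20 to 40, also added later, 293 genes were higher, and the aggrecan list turned to a median of 0.11, Matn3 to 1.20, Prkg2 to 0.46 and Ppa1 to 0.20. Fibroblast markers turned to 0.14 among members without division, hypertrophy, Prg4 or some other-type markers (added later too). That setting itself cut on fibroblast markers, but not on osteoblast markers. Cxcl9 turned to -0.50 without the highest Scrublet scores. Of 1100 values of 110 named genes over 10 alternatives, 8 changed sign: Matn3, Prkg2, Ppa1 and Cxcl9, past the 1.5-fold size at first, and Col9a1, Col9a2, Lect1 and Epyc, not past it, at a rule sum of 20 to 40. There 18 of 105 named genes past the size were no longer so. Col9a1, Col9a2 and Matn3 are, with Col9a3, the genes whose sum this band limits, so their signs there depend on one another. The cause was not tested. No paired analysis was possible because each group has 1 library. Depth limits genes under about 5 CPM, and 1 library per group limits every difference.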
